A study of Mus musculus with 4 samples.

Results

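Neuropeptide precursor genes encode the prohormones from which neurons cut small signalling peptides. The 10 genes described here are Npy, Agrp, Sst, Ghrh, Gal, Tac1, Tac2, Cartpt, Pnoc and Penk. They were chosen by name as rows of the count table, 10 of its 27998 genes. RNA of single cells was sequenced from the arcuate nucleus (ARC) of the developing hypothalamus, taken from 6 mouse embryos of the C57BL/6 strain that carried the Pomc-eGfp transgene, a green fluorescent reporter of Pomc expression. The embryos were of stage E15, given as E15.5 in the titles of the runs, and no untreated, mutant or other control group was part of the data. All embryos were pooled into 1 droplet library, which was sequenced in 4 runs, so there are no replicates, and no test or standard error is given. Intervals in brackets are 95% intervals that cover counting error only.

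A cleaved precursor peptide is packed into dense-core granules and released beside a fast transmitter, and it acts on receptors of the G protein-coupled family. In the adult ARC, Npy and Agrp are made by neurons that promote feeding and Ghrh by neurons that stimulate growth hormone release. Sst encodes somatostatin, which restrains that release. Tac2 encodes neurokinin B of the neurons that pace reproductive hormone release, and Pomc, the precursor behind the reporter, is not one of the 10 genes.

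The library held 26277265 unique molecular identifiers (UMIs), each standing for 1 captured RNA molecule, in 6465 cell barcodes. Limits on detected genes, mitochondrial UMIs and haemoglobin RNA kept 6351 cells with a median of 3338 UMIs. A cell with at least 2 UMIs of Stmn2, a gene of growing axons, was called a neuron, and 4006 cells met this. All 6 neuronal markers checked, Tubb3 and Elavl3 among them, were over 2-fold higher there, which holds for Stmn2 by construction. The 1705 cells without a Stmn2 UMI were taken as non-neuronal, and 640 cells with 1 Stmn2 UMI fell between. Neurons were grouped by UMIs of transcription factors and of the guidance receptor Robo3. Neurons with UMIs of 1 marker and of none of the others numbered 505 for Otp, 209 for Dlx1, 256 for Nhlh2, 204 for Fezf1 or Nr5a1 and 456 for Tcf7l2. Robo3 stood alone in 4 neurons, so every one of the 394 neurons with a Robo3 UMI is described in its place, a choice made after the data were seen. A further 1772 neurons held several markers and 600 held none. Neurons of the Otp group were shallower than neurons as a whole, with a median of 2753 against 3408.5 UMIs. Shares of cells are therefore also given after each cell was thinned to 2167 UMIs. Shallower cells, 280 of the 4006 neurons and 60 of the 505 neurons of the Otp group, were left out of the thinned shares, which so have a smaller denominator.

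On GRCm38, Npy lies on chromosome 6 from 49822710 to 49829507, Agrp on chromosome 8 from 105566698 to 105637393, Sst on chromosome 16 from 23889573 to 23890958 and Ghrh on chromosome 2 from 157329497 to 157347506. Gal lies on chromosome 19 from 3409915 to 3414544, Tac1 on chromosome 6 from 7554879 to 7565834 and Tac2 on chromosome 10 from 127724478 to 127731768. Cartpt lies on chromosome 13 from 99898489 to 99901091, Pnoc on chromosome 14 from 65400673 to 65425472 and Penk on chromosome 4 from 4133531 to 4138819. The annotated span of Agrp overlaps other genes on both strands, Ctcf and Ripor1 among them, so its counts are uncertain where reads fall in the shared bases. That of Penk overlaps A830012C17Rik on the other strand.

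Upstream sequence was found in RefSeq (GRCm38.p6) for 7 of the 10 genes, and not for Agrp, Pnoc and Penk. The 250 bases before the start are shown for Npy and Sst, which were both highest in neurons with Otp, and for the more downstream of 2 Ghrh starts, a gene that was highest in neurons with Dlx1. Otp and Dlx1 are homeodomain proteins, a family that often binds the core TAAT. Capitals mark TAAT, the cyclic AMP response element TGACGTCA and the TATA box TATAAA, each searched on both strands, where TAATTA holds 2 overlapping matches of TAAT. All are written 5′ to 3′ on the strand of the gene.
Npy (chr6:49822460-49822709, plus strand): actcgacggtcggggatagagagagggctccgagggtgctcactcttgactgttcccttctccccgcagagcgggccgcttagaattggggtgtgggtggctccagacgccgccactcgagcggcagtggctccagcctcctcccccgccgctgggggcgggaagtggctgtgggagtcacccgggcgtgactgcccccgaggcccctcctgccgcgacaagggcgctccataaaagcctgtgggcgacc
Sst (chr16:23890845-23891094, minus strand): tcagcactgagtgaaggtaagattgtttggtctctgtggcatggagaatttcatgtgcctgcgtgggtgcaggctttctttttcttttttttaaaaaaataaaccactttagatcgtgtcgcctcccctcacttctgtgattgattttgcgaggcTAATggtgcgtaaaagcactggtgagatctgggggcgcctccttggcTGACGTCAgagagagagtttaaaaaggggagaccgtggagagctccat
Ghrh (chr2:157337427-157337676, minus strand): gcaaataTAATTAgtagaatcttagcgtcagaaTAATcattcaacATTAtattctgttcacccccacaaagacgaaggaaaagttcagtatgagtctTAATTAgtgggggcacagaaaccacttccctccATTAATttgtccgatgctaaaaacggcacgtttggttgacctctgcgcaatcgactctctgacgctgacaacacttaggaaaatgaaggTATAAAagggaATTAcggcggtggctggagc
Of the 2 Ghrh windows, the one shown held 9 matches of TAAT and the other, chr2:157346656-157346905, held 0 of TAAT and 0 of TATAAA. The Sst window held 1 TAAT, at position -95 from the start, while the Npy window held 0. Of the windows not shown, that of Tac1, a gene lower in neurons with Otp and with Dlx1, held 2 and that of Tac2 held 1. Those of Gal, a gene higher in both, and of Cartpt held 0. A TAAT match was present in 54.9% of 32851 windows of the same length, with a median of 1 match. The element TGACGTCA was present in 1.55% of all windows, and Sst held it at position -48. The Cartpt window held it at position -112, but the bases after that start did not open an annotated transcript. The box TATAAA was present in 12.4% of all windows, and the Ghrh window shown held it at position -31. These are matches of letters and were not tested as binding sites.

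A UMI of at least 1 of the 10 genes was found in 1252 of 4006 neurons, 31.3% (29.8% to 32.7%), and in 23.8% after thinning. In non-neuronal cells the share was 20.2% (18.4% to 22.2%), and 15.9% after thinning. Of the neurons, 982 held 1 of the genes, 232 held 2 and 38 held 3 or more. The share was 51.1% in the Otp group (46.6% to 55.5%) and 53.8% in neurons with a Robo3 UMI, which after thinning were 50.1% and 37.0%. The groups of Fezf1 or Nr5a1 and of Tcf7l2 had the lowest shares of the groups with a single marker, at 16.2% and 16.9%. Neurons with a precursor were a little deeper than those without, with a median of 3587.5 against 3324.5 UMIs.

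Levels are given as CPM, the UMIs of a gene per 1000000 UMIs pooled over a group of cells, so that a level joins the share of cells and the amount per cell. Of the 10 genes, 7 were over 2-fold higher in neurons than in non-neuronal cells, against 12.4% of the 13773 genes with at least 20 UMIs in these cells. Npy was at 110 CPM in neurons and 8.93 CPM in non-neuronal cells, 12.3-fold, and Tac1 at 76.6 and 7.99 CPM, 9.59-fold. Agrp differed 8.14-fold, Gal 6.24-fold, Sst 4.55-fold and Ghrh 3.77-fold. Tac2 was 18.4-fold higher, from 89 UMIs in neurons and 2 in non-neuronal cells, on the log2 scale 4.20 (2.31 to 7.27). Pnoc at 9.97 against 7.67 CPM and Penk at 6.41 against 5.17 CPM were within 2-fold, with log2 ratios of 0.38 (-0.10 to 0.87) and 0.31 (-0.27 to 0.92). Against the connective, vascular and macrophage cells alone these were 2.80 and -1.83. The connective cells among them held 1 UMI of Pnoc and 16 of Penk, so the Pnoc value is uncertain. Cartpt was the exception in direction, at 13.6 CPM in neurons and 65.3 CPM in non-neuronal cells, a log2 ratio of -2.26 (-2.51 to -2.02). Against the connective, vascular and macrophage cells alone the log2 ratio was 0.93. The connective cells among them held 5 Cartpt UMIs, too few to settle the direction. Of all genes compared, 22.6% were over 2-fold lower in neurons.

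RNA set free from broken cells can enter droplets and give UMIs in cells that do not make it. The 176 cells with mesenchymal, vascular or macrophage markers, with a median of 3546.5 UMIs, served as a gauge of this. Npy had a UMI in 2.27% of them, Tac1 in 2.84%, Sst in 2.84% and Cartpt in 1.14%, while Agrp, Gal and Tac2 were found in 0 cells, which allows a share of up to 1.70%. In neurons the shares were 5.24% for Npy (4.57% to 5.98%), 11.2% for Tac1, 6.69% for Sst, 3.82% for Cartpt, 1.90% for Agrp, 2.22% for Gal and 0.849% for Tac2. Penk stood out, with a UMI in 5.11% of the gauge cells and in 1.32% of neurons.

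The precursors also differed in how their UMIs were spread over neurons. These are UMIs of a 3′ library and are not scaled by gene length. The largest counts in 1 cell were 141 UMIs for Npy, 42 for Sst, 35 for Ghrh and 29 for Tac1. Of the Npy UMIs, 77.7% lay in the 40 neurons with 10 or more of them, and for Ghrh 70.6% lay in 23 such neurons and for Sst 66.7% in 70. Tac1 was spread more evenly, with 448 positive neurons and 17.7% of its UMIs in 15 neurons with at least 10. Cartpt, Pnoc and Penk had 0 neurons with as many as 10, and 78.4%, 89.8% and 62.3% of their positive neurons held 1 UMI.

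**Figure D1:**
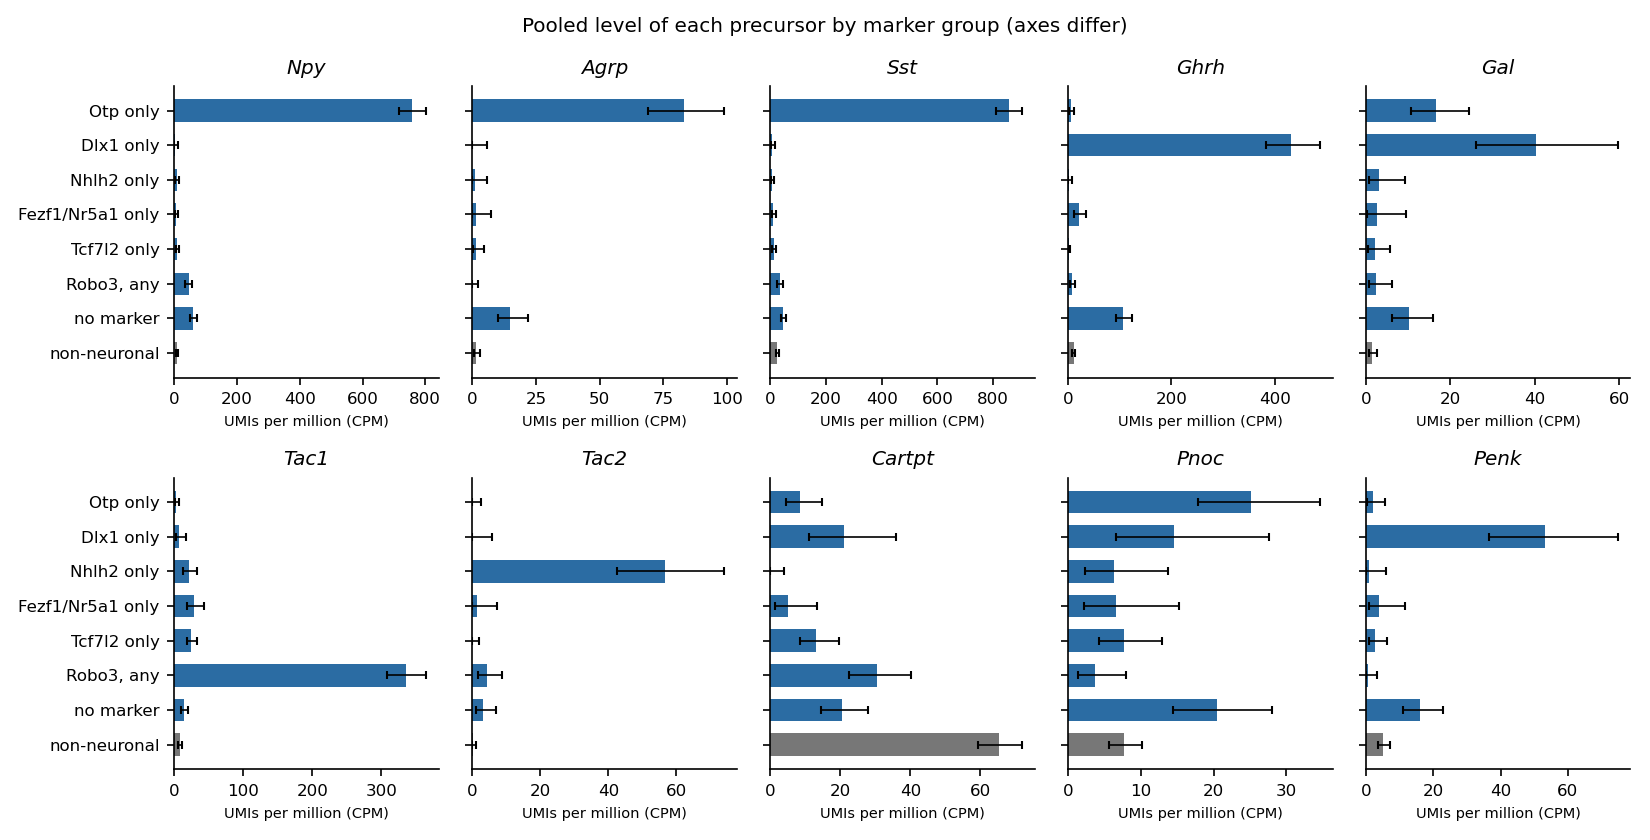
Pooled level of each precursor (x axis, CPM, from 0, scaled separately for each gene) in 7 groups of neurons (blue) and in non-neuronal cells (grey), with exact Poisson 95% intervals. Npy, Agrp and Sst peak with Otp, Ghrh and Penk with Dlx1, Tac2 with Nhlh2 and Tac1 with Robo3, and Cartpt is highest outside neurons.

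In the Otp group 5 of the 10 precursors were over 2-fold higher than in other neurons, against 2.64% of all genes compared, and 4 were over 2-fold lower, against 11.3%. Npy was at 758 CPM (715 to 803) against 39.9 CPM, with a UMI in 18.8% of the 505 cells and in 19.8% after thinning. Agrp, an antagonist of melanocortin receptors, was at 83.0 CPM (69.1 to 98.8) against 5.16 CPM. Sst was at 855 CPM (809 to 903) against 40.3 CPM, and 30.7% of the cells held it. Gal and Pnoc were higher by less, at 16.6 against 7.96 CPM and at 25.2 against 8.32 CPM, and the interval of the log2 ratio of Gal, 0.37 to 1.70, reached below 2-fold. The group held 4 Tac1 UMIs, at 2.65 against 84.5 CPM, and a Tac2 UMI in 0 of 505 cells, which allows a share of up to 0.594%.

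Counted from the genes, neurons with an Otp UMI, alone or beside other markers, held 90.0% of all neuronal Npy UMIs (88.5% to 91.4%), 80.7% of those of Agrp and 91.2% of those of Sst. The same neurons held 16.7% of all neuronal UMIs. Otp was also detected in 61.0% of Npy neurons, 76.3% of Agrp neurons and 75.4% of Sst neurons. When at least 2 Sst UMIs were required, Otp was found in 91.9% of 185 neurons and was the gene with the largest ratio to neurons without Sst, 11.5-fold.

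The 3 precursors of the Otp neurons did not spread over the same cells. Among all neurons, Npy and Agrp met in 39 cells, where 4.02 would be expected if detection were independent within 10 strata of sequencing depth, a ratio of 9.69 (6.89 to 13.3). An Npy UMI was found in 51.3% of the 76 Agrp neurons (39.6% to 63.0%), and an Agrp UMI in 18.6% of the 210 Npy neurons. Npy and Sst met in 45 neurons, 3.27 times the expected 13.8 (2.39 to 4.38). Agrp and Sst met in 3.

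Within the 750 neurons with an Otp UMI, where all 3 genes are more frequent, the pairs parted. Npy and Agrp met in 37 neurons, 3.22 times the expected number (2.27 to 4.44). Agrp and Sst met in 3 neurons, 0.219 of the expected 13.7 (0.0452 to 0.640). The ratio for Npy and Sst was 1.32, a value not counted as more often, since its interval included 1. Sst alone was found in 157 of these neurons, Npy alone in 49, Npy with Sst in 42, Npy with Agrp in 37, Agrp alone in 18, and all 3 in 0. In the Otp group without other markers the ratio for Agrp and Sst was 0.257 (0.0530 to 0.752). Co-detection of these 3 genes had been counted before in a cluster of the same cells, so these values are not independent support for it.

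**Figure D2:**
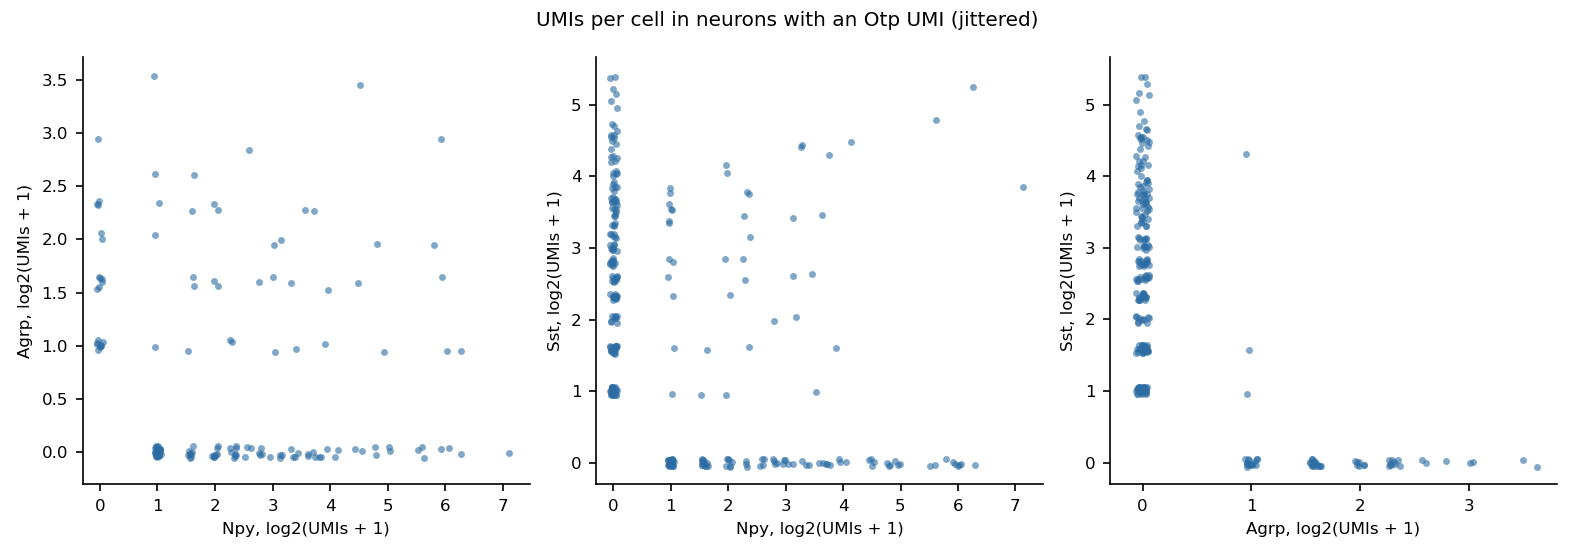
UMIs per cell, as log2(UMIs + 1) on both axes with a small random shift, in neurons with an Otp UMI that held at least 1 gene of the pair, for Npy and Agrp (left), Npy and Sst (middle) and Agrp and Sst (right). Each point is 1 neuron. Cells with both Npy and Agrp number 37 and cells with both Npy and Sst 42, while 3 cells hold both Agrp and Sst, each with 1 Agrp UMI.

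Further genes were found beside these precursors. In the 105 neurons with at least 2 Npy UMIs the largest ratios belonged to Agrp, 51.2-fold, Calcr, the calcitonin receptor, 9.18-fold, and the transcriptional coregulator Cited1, 9.10-fold. In the 42 neurons with at least 2 Agrp UMIs they belonged to Npy, Cited1 and Calcr, and Cited1 was detected in 97.6% of them against 16.6% of neurons without Agrp. Tbx3, a T-box factor of the ARC, was detected in 48.7% of Agrp neurons and 27.6% of Npy neurons, against 11.2% and 11.1% of neurons without the gene and 20.2% of the Otp group. Isl1, a LIM homeodomain factor, was detected in 73.5% of Sst neurons, 60.5% of Npy neurons and 53.9% of Agrp neurons, and in 77.0% of the whole Otp group, above all 3. After thinning these were 65.7%, 48.0% and 35.6%, against at most 24.6% in neurons without each gene.

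Ghrh was at 432 CPM (382 to 487) in the Dlx1 group, 17.3-fold above other neurons, a log2 ratio of 4.11 (3.88 to 4.34). A UMI was found in 12.4% of the 209 cells (8.29% to 17.7%) and in 12.3% after thinning. In this group 3 of the 10 precursors were over 2-fold higher, against 4.20% of all genes compared, and 5 were over 2-fold lower, against 14.8%, among them Tac2 at 0 UMIs with an upper end of the log2 interval of 0.02. The others were Gal, at 40.3 against 7.48 CPM, and Penk, at 53.3 against 4.45 CPM. Agrp had a UMI in 0 of the 209 cells, which allows a share of up to 1.44%. Neurons with a Dlx1 UMI held 56.8% of the Ghrh UMIs of neurons (52.9% to 60.7%) and 48.5% of those of Penk, but 6.97% of all UMIs. A second place of Ghrh was the set of neurons without any marker, at 107 CPM from 200 UMIs in 23 cells. In the Fezf1 or Nr5a1 group, 15 of the 16 Ghrh UMIs came from 1 cell.

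Th, the rate-limiting enzyme of dopamine synthesis, was detected in 48.4% of the 93 Ghrh neurons against 3.02% of other neurons, and Gsx1, a homeodomain factor, in 23.7% against 1.74%. Ddc, which acts after Th in dopamine synthesis, was detected in 4.30% against 3.55%. With at least 2 Ghrh UMIs, 79.6% of 49 neurons had a Th UMI. Prox1 was detected in 46.2% against 13.0%. Ghrh and Gal met in 23 neurons, 11.1 times the expected 2.07 (7.03 to 16.6), the highest ratio of the 45 pairs. Gal was detected in 24.7% of Ghrh neurons (16.4% to 34.8%), and within the Dlx1 group the ratio was 3.19 (1.46 to 6.06). Ghrh and Pnoc met in 16 neurons, 5.03 times the expected 3.18 (2.88 to 8.18). For this pair the ratio was 3.11 (1.25 to 6.42) in neurons with a Dlx1 UMI and 2.22 (0.722 to 5.19) in the Dlx1 group without other markers.

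Penk, the precursor of the enkephalins, was also highest in the Dlx1 group, with a UMI in 8.13% of its cells (4.81% to 12.7%). It met Ghrh in 1 neuron against an expected 1.15, a ratio with an interval of 0.0221 to 4.86, so that a shortage was not detectable at this depth. Dlx1 was detected in 37.7% of the 53 Penk neurons and in 37.6% of the 93 Ghrh neurons. Lhx1, a LIM homeodomain factor, was detected in 43.4% of Penk neurons against 4.58% of others. Among Ghrh neurons, 2.30% had an Lhx1 UMI after thinning and among Penk neurons 34.0%. Th was found in 0 of the 53 Penk neurons. In the 20 neurons with at least 2 Penk UMIs the largest ratio was that of Pomc, but 267 of its 274 UMIs came from 1 cell, and 8 of the 20 held any. The next in order were Lhx1os, 6.95-fold, and Scn9a, 4.99-fold.

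Gal, the precursor of galanin, was found in several groups. Its 136 neuronal UMIs fell to 42.6% in neurons with Otp (34.2% to 51.4%) and to 25.7% in neurons with Dlx1. In the 20 neurons with at least 2 Gal UMIs, the gene with the largest ratio was Avp, which encodes vasopressin. Avp had 974 UMIs there, 419 of them in 1 cell, with 8 of the 20 cells positive. Of the 11 neurons with at least 10 Avp UMIs, 8 had a Gal UMI, 72.7% (39.0% to 94.0%), against 1.98% of the 3932 neurons without Avp. Over all 74 neurons with an Avp UMI the share was 14.9%, and the limit of 10 UMIs was set after the values were seen. Sst had a UMI in 1 of those 11 neurons. Ghrh was the next gene, 31.1-fold higher with Gal than without.

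Tac2 was at 56.7 CPM (42.6 to 74.0) in the Nhlh2 group and 2.41 CPM in other neurons, 23.5-fold. It was the 1 precursor of 10 over 2-fold higher there, against 2.68% of all genes compared, and 8 were over 2-fold lower, against 9.87%, with a log2 interval for Gal, at 3 UMIs, that included 0 (-3.84 to 0.04). Its UMIs were few, 54 in 20 of the 256 cells, and 92.1% of all neuronal Tac2 UMIs lay in neurons with an Nhlh2 UMI (84.5% to 96.8%), which held 44.5% of all neuronal UMIs. Nhlh2, a basic helix-loop-helix factor, was detected in 85.3% of the 34 Tac2 neurons against 39.3% of others, and Sox14, an HMG-box factor, in 41.2% against 16.2% of others. Chgb, a granule protein, was detected in 64.7% against 28.0%. In neurons with Nhlh2 and Tcf7l2 together, 13 of 18 Tac2 UMIs came from 1 cell.

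Tac1, the precursor of substance P and neurokinin A, had the most positive neurons, 448. Of its 1183 neuronal UMIs, 1088 lay in neurons with a Tcf7l2 UMI (90.3% to 93.5%), which held 57.8% of all neuronal UMIs, 85.0% in neurons with Nhlh2 and 46.5% in neurons with Robo3, which held 10.6% of all. For Tac2 the share in neurons with Tcf7l2 was 28.1%. Among the 394 neurons with a Robo3 UMI it was at 336 CPM (308 to 365) against 45.8 CPM in other neurons, 7.32-fold, and 43.4% of them held it (38.4% to 48.5%), 30.8% after thinning. In the 282 neurons with Nhlh2, Tcf7l2 and Robo3 the level was 401 CPM, and in the 742 with Nhlh2 and Tcf7l2 it was 124 CPM. With Nhlh2 alone it was at 21.0 CPM, with Tcf7l2 alone at 24.7 CPM and with Fezf1 or Nr5a1 alone at 28.8 CPM. Among Robo3 neurons 2 of the 10 precursors were over 2-fold higher, against 3.58% of all genes compared, and 7 were over 2-fold lower, against 11.2%. The other was Cartpt, at 30.5 against 11.6 CPM. Single cells gave 59 of the 74 Npy UMIs and 40 of the 57 Sst UMIs in Robo3 neurons.

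In the 217 neurons with at least 2 Tac1 UMIs, the 5 genes with the largest ratios were Robo3, 7.81-fold, Gng8, 6.11-fold, Clybl, 6.08-fold, Sncg, 5.57-fold, and Pou4f1, 5.25-fold. Pou4f1, a POU homeodomain factor known from the medial habenula and sensory neurons, was detected in 79.7% of them against 17.6% of neurons without Tac1. Pou4f1 was found in 83.2% of the Robo3 neurons, at 1249 CPM, and in 1.39% of the Otp group, at 4.65 CPM. Tac2, the remaining gene of the short habenula list (Robo3, Pou4f1 and Tac2), was at 4.27 CPM in the Robo3 neurons, below its 56.7 CPM in the Nhlh2 group. The habenula lies outside the hypothalamus, and the part of such cells in the level of Tac1 was not tested. Tac1 and Cartpt met in 42 neurons, 1.89 times the expected 22.2 (1.37 to 2.56). Npy and Tac1 met less often than expected, in 12 neurons where 23.7 were expected, a ratio of 0.506 (0.261 to 0.884), a call that was lost when detection needed 2 UMIs. The ratio was 0.732 (0.238 to 1.71) in neurons with an Otp UMI and 0.752 (0.276 to 1.64) in those with an Nhlh2 UMI, with no call in either.

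The Fezf1 or Nr5a1 group and the Tcf7l2 group had 0 precursors over 2-fold higher, against 3.69% and 4.77% of all genes compared, and 8 of 10 over 2-fold lower in each, against 12.9% and 3.21%. In the Fezf1 or Nr5a1 group the log2 intervals of Gal (-4.86 to 0.08) and Tac2 (-7.51 to 0.32), with 2 UMIs and 1 UMI, included 0. The highest value in either was 28.8 CPM, for Tac1. The 4 neurons with Robo3 alone gave 3 calls, for Sst, Ghrh and Pnoc, but 13.6% of all genes passed there and the Pnoc call was 1 UMI. Over the 6 groups there were 12 calls of a higher precursor among 60 combinations, and 9 without those 4 cells.

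Of the 45 pairs, 7 met more often than expected and 2 less often. How often pairs of other genes depart from this expectation was not counted, so these numbers cannot be called particular to the precursors. Beyond those named, Npy and Pnoc met in 19 neurons, 2.55 times the expected number (1.54 to 3.98), and Sst and Pnoc in 23, 2.41 times (1.53 to 3.62). All 3 genes were higher in the Otp group, and within neurons with an Otp UMI the ratios were 1.91 (1.11 to 3.06) and 1.53 (0.949 to 2.34). In the Otp group without other markers they were 1.57 (0.811 to 2.74) and 1.37 (0.751 to 2.30), both with intervals that included 1. Cartpt and Pnoc met in 0 neurons against an expected 4.93, with a ratio of at most 0.748 by the upper end of its interval, a call that was lost with no limits on cells (ratio 0.194) and when detection needed 2 UMIs. A further 9 pairs were not found together, with expected numbers of 2.74 or less, which is too few to tell a shortage from counting error. Doublets, 2 cells in 1 droplet, would add to co-detection, and none were removed beyond the upper limit on detected genes.

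**Figure D3:**
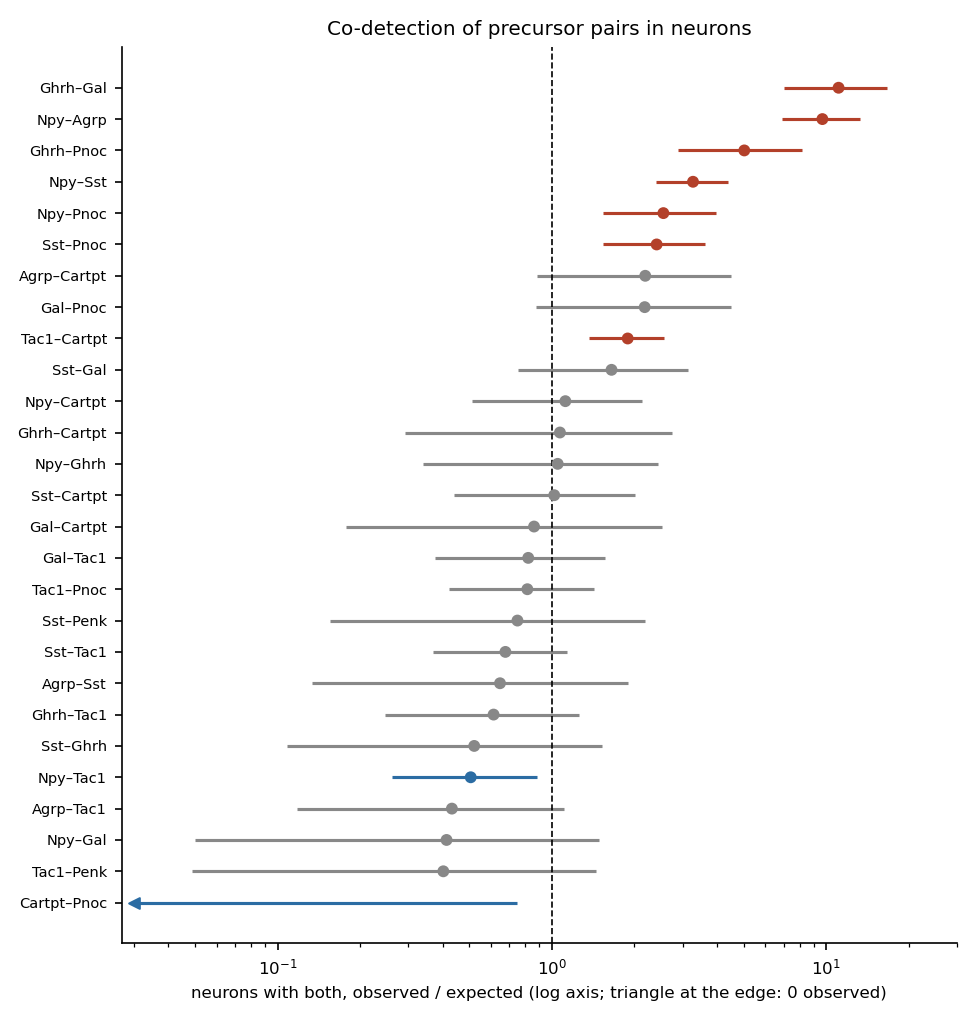
Observed over expected number of neurons with both genes (x axis, log scale) for the pairs with at least 3 expected neurons or a call, with Poisson 95% intervals that take the expected number as exact. Red pairs lie above 1 and blue pairs below it, grey intervals include 1, and the triangle is the pair with 0 neurons. Ghrh with Gal and Npy with Agrp stand highest, at 11.1 and 9.69.

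The precursors differed in the transmitter genes found beside them. Slc32a1, the vesicular transporter of inhibitory neurons, was detected in 24.1% of Pnoc neurons, 20.8% of Penk, 18.7% of Sst, 18.4% of Agrp, 16.1% of Ghrh and 15.7% of Npy neurons, against at most 7.13% of neurons without each gene. In Tac1 neurons it was detected in 2.46% against 7.93%. Slc17a6, the glutamate transporter, ran the other way. It was detected in 32.4% of Tac1 neurons against 16.0%, and in 5.71% of Npy, 3.95% of Agrp and 4.10% of Sst neurons against 18.1% to 18.8%. For Tac2 the shares were 23.5% for Slc17a6 and 5.88% for Slc32a1, from 8 and 2 of 34 neurons. After thinning, the shares of Slc17a6 in Tac1 neurons and in neurons without Tac1 were 15.8% and 9.45%.

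**Figure D4:**
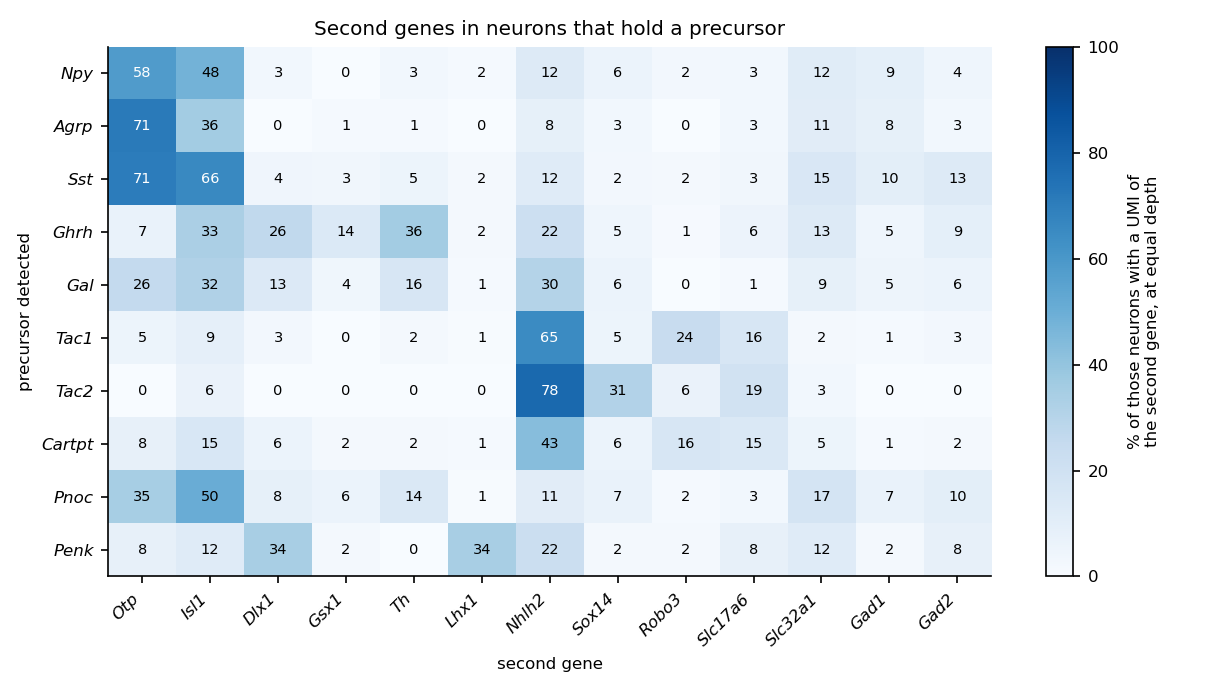
Percent of the neurons with a UMI of each precursor (rows) that also held a UMI of a second gene (columns), at equal depth, from 0 to 100% in darkening blue. Otp fills the rows of Npy, Agrp and Sst, at 58.0%, 71.2% and 70.7%, and Nhlh2 those of Tac2 and Tac1, at 78.1% and 64.9%.

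Cartpt, which encodes the CART peptides, lay mostly outside the neurons. Of its 769 UMIs, 27.3% were in neurons, against 94.9% for Npy and 94.3% for Tac1. Non-neuronal cells were split by marker lists into 632 progenitor-like, 432 pituitary-like, 106 mesenchyme-like, 52 vascular-like and 18 macrophage-like cells and 465 without a class. Cartpt was at 172 CPM (154 to 191) in the pituitary-like cells and 15.6 CPM in the other non-neuronal cells, a log2 ratio of 3.46 (3.08 to 3.86), and 27.1% of the pituitary-like cells held it (22.9% to 31.5%). Of the 83 non-neuronal cells with at least 2 Cartpt UMIs, 70 were pituitary-like, 64 had a Pitx1 UMI and 42 an Lhx3 UMI, both factors of the anterior pituitary. The genes with the largest ratios in the 83 cells were A730046J19Rik, C2cd4b, Thrb, the thyroid hormone receptor beta, Egr4 and Gjd2, between 6.55-fold and 7.61-fold.

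The same pituitary genes went along with Cartpt inside the neurons. In the 33 neurons with at least 2 Cartpt UMIs, the largest ratios were those of Pou1f1, 33.8-fold, and Pitx1, 19.3-fold, found in 8 and 7 of the cells. Of all 4006 neurons, 60 met the limits set for pituitary-like cells. Without these 60, Cartpt was found in 3.60% of neurons in place of 3.82%, and the log2 ratio to non-neuronal cells was -2.45 in place of -2.26. Among the 394 Robo3 neurons, of which 6 met those limits, Cartpt was found in 42, and none held more than 3 of its UMIs. Pnoc, the precursor of nociceptin, was also over 2-fold higher in the pituitary-like cells, at 11.8 against 5.74 CPM, a log2 ratio of 1.04 (0.17 to 1.91). Of the 7 precursors with at least 20 UMIs outside neurons, these 2 were higher, against 9.68% of all genes compared. Npy, Sst and Ghrh, 3 of the 7, were over 2-fold lower, and the share of all genes lower there was not counted.

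Penk was over 2-fold higher in mesenchyme-like cells than in other non-neuronal cells, at 35.8 CPM (20.5 to 58.2) against 2.86 CPM. Penk was the 1 precursor of 7 with this pattern, against 7.89% of all genes compared. Ghrh, Cartpt and Pnoc, 3 of the 7, were over 2-fold lower, with no share over all genes counted. The 16 Penk UMIs lay in 9 of the 106 cells, and the level in neurons, 6.41 CPM, was lower. Of the 7 non-neuronal cells with at least 2 Penk UMIs, 5 had a UMI of Col1a1, a collagen of connective tissue.

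**Figure D5:**
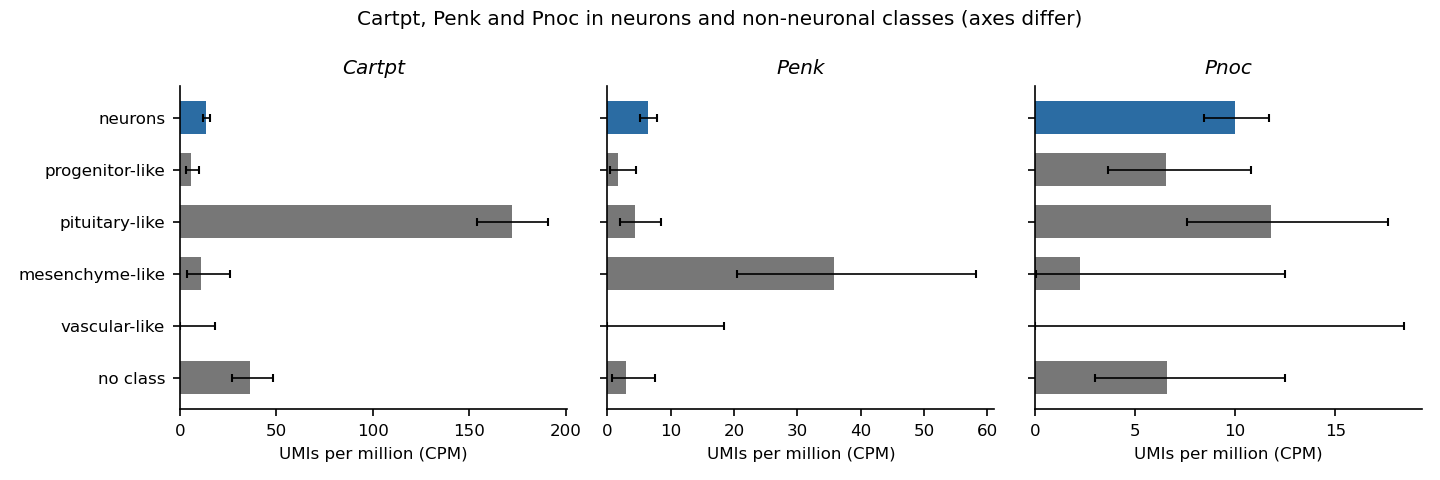
Pooled level (x axis, CPM, from 0, scaled separately for each gene) of Cartpt, Penk and Pnoc in neurons (blue) and 5 sets of non-neuronal cells (grey), with exact Poisson 95% intervals. Cartpt peaks in pituitary-like cells at 172 CPM and Penk in mesenchyme-like cells at 35.8 CPM, while the intervals of Pnoc overlap in all sets.

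Some precursor RNA outside the neurons lay in cells that resembled them. Of the 168 Sst UMIs in non-neuronal cells, 147 lay in 17 cells with at least 2, all 17 of which had an Otp UMI and 15 a Tubb3 UMI. Among the 640 cells with 1 Stmn2 UMI, Sst was at 145 CPM, above the 120 CPM of neurons, and 369 of its 377 UMIs lay in 24 cells. For Ghrh, 52 of 70 non-neuronal UMIs lay in 7 cells, all with a Tubb3 UMI and 4 with a Dlx1 UMI. With connective, vascular and macrophage cells alone as the comparison, the log2 ratios of Sst and Ghrh were 3.39 and 4.86, in place of 2.19 and 1.92. The value of Ghrh is uncertain, since the mesenchyme-like cells held 0 of its UMIs and the whole comparison set very few. The part of the neuron-like cells in this was not tested.

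Genes that process and store peptides were detected widely. Of 17 listed, all had enough UMIs and 10 were over 2-fold higher in neurons, against 12.4% of all genes, and 2 were over 2-fold lower, against 22.6%. Pcsk1n, an inhibitor of prohormone convertase 1, was at 1568 against 325 CPM, Cpe, a carboxypeptidase, at 291 against 116 CPM and Pcsk2, prohormone convertase 2, at 103 against 10.0 CPM. Pcsk1, the convertase that makes the first cuts in many precursors, was at 2.20 CPM in neurons and 2.35 CPM in non-neuronal cells. Scg2, a granin, and Cadps2, a priming factor of granules, were the 2 lower genes, Scg2 at 91.6 against 205 CPM. Of the 1310 non-neuronal Scg2 UMIs, 1077 lay in pituitary-like cells, and in the connective, vascular and macrophage cells Scg2 was at 11.4 CPM and Cadps2 at 5.70 CPM, below the neurons. After thinning, Resp18, a granule protein, was detected in 60.3% of Agrp neurons and 54.0% of Ghrh neurons, against 23.8% of the rest in both cases.

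Receptors for these peptides were sparse. Of 21 listed receptor genes with a row in the table, 5 had at least 20 UMIs over both sets of cells. Of these, 1 was over 2-fold higher in neurons, against 12.4% of all genes, and 1 in 5 is too few to set apart from that share. That gene was Oprl1, the receptor of the Pnoc peptide nociceptin, at 39.8 against 5.01 CPM. Npy1r, an Npy receptor, was at 2.65 against 4.85 CPM and Sstr2, a somatostatin receptor, at 3.17 against 5.32 CPM. Of 36 other precursors, 16 had enough UMIs, 9 were over 2-fold higher in neurons and 3 over 2-fold lower, against 12.4% and 22.6% of all genes. Avp, at 107 against 2.82 CPM, and Adcyap1, which encodes PACAP, at 20.8 against 1.10 CPM, were among the higher ones. Pomc was lower in neurons, at 346 against 833 CPM, but above the 47.1 CPM of the connective, vascular and macrophage cells. Also lower was Cck, the precursor of cholecystokinin, at 1.36 against 11.4 CPM. By group, 3 of 13 testable precursors of this list were higher with Otp (Avp, Qrfp and Cbln4) and 3 with Nhlh2 (Pomc, Nts and Nps), against 2.64% and 2.68% of all genes, while 8 and 4 were lower, against 11.3% and 9.87%. With Fezf1 or Nr5a1, 2 were higher (Pdyn and Cbln1) and 7 lower, against 3.69% and 12.9% of all genes. With Dlx1 the counts were 0 and 8, against 4.20% and 14.8%, and with Tcf7l2 0 and 4, against 4.77% and 3.21%.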

How the data were processed

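The authors deposited raw UMI counts for each gene in each barcode, obtained with Cell Ranger 2.1.1 and STAR 2.4.0 on mm10 and not normalized. Seurat 2.0, also named in the submitters' processing notes, was not used here. The 4 runs were 1 library, and no file ties a cell to its run or embryo. Cells were kept with 200 to 4500 genes, at most 10% mitochondrial UMIs and at most 10 Hba-a1 UMIs. No doublet caller was run. Shares carry Clopper-Pearson intervals, CPM exact Poisson intervals and CPM ratios conditional exact binomial intervals at 95%. A call needs a 2-fold ratio and at least 20 UMIs in both sets together. Expected pairs were summed over 10 strata of depth, and a pair was called where the Poisson interval left out 1. A count of 0 was bounded by 3 counts. Non-neuronal classes needed at least 3 UMIs from at least 2 genes of a marker list and took the list with the most UMIs. Leading genes are at most 5 with the largest ratio, at least 20 UMIs and a UMI in at least 20% of at least 20 neurons with 2 or more UMIs of the precursor. Tac2 and Pnoc had fewer than 20 such neurons. The genes named otherwise come from lists of precursors, granule genes, receptors, transmitters and lineage factors, and Avp, Pomc and single-cell maxima were singled out after their values were seen. Members and lists were chosen with earlier results of these data known. Calls and intervals were tried on simulated counts that were drawn independently. The crowding of UMIs in few cells was not simulated, so the intervals were not tested for it. Tables were handled with pandas 2.3.3 under Python 3.11.15, intervals came from scipy 1.17.1, drawing of UMIs from numpy 2.4.6 and figures from matplotlib 3.10.9. Positions are from GENCODE vM21. Alternatives changed the limits on cells, detection, thinning, the Stmn2 limit, the marker groups and the non-neuronal background. Some results on listed genes are not reported here.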

Additional observations from a re-analysis of the deposited data

Results flagged for a closer look

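The limits on cells left out 114 barcodes with a median of 16313 UMIs, which enter the comparisons above only where no limits on cells is named. Precursors are given here where the lower end of the interval stood above the limit that a count of 0 allows, 1.62 CPM. Npy was at 54.2 CPM (44.1 to 65.9), from 100 UMIs in 20 barcodes. Cartpt was at 28.2 CPM (21.0 to 36.9), with 25 of its 52 UMIs in 1 barcode. Pnoc was at 7.04 CPM (3.75 to 12.0), from 13 UMIs in 6 barcodes. Tac1 at 2.71 CPM (0.879 to 6.32) and Ghrh at 2.17 CPM (0.590 to 5.55) lay above the limit with intervals that reached below it.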

How the results depend on the processing

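Each result was recomputed with 1 choice changed at a time. The share of neurons with a precursor was 15.4% when detection needed 2 UMIs and 23.8% after thinning. The number of precursors higher in neurons was 7 in every alternative except with mesenchymal, vascular and macrophage cells as background, where it was 8, with Pnoc at a log2 ratio of 2.80, while Penk turned to -1.83 and Cartpt to 0.93. Of the 8, Agrp, Gal and Tac2 had 0 UMIs in those cells, and with 3 counts put in place of 0 they were at least 2.98-fold, 2.06-fold and 1.35-fold higher, so for Tac2 the 2-fold call was not secured. The Pnoc call and the direction of Cartpt were not secured either, at 1 and 5 UMIs in the mesenchyme-like part of that background. Pairs met less often numbered 1 with no limits on cells (Npy and Tac1, with Cartpt and Pnoc lost), 1 when detection needed 2 UMIs (Sst and Tac1 in place of the former 2), and 2 among neurons with an Otp UMI (Npy with Gal and Agrp with Sst). Pairs met more often numbered 3 among those neurons, an alternative chosen after seeing the data, and there Tac1 and Cartpt met in 0 neurons against an expected 0.840, too few to show a shortage. The calls by marker group ranged from 9 to 13, with the lowest when the 4 neurons with Robo3 alone were left out. Leaving the 60 pituitary-like cells out of the neurons left the counts at 7, 12, 7 and 2 and the share at 31.0%. The cause of these shifts was not tested. No paired analysis was possible because the 4 numbered samples are runs of 1 library, and none could be left out for the same reason. At a median of 3338 UMIs per cell, Tac2, Penk, Gal and Agrp were detected in few neurons, and the part of depth in this was not tested.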
